A study of Homo sapiens with 5 samples.

Results

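Genes of DNA replication and mitosis were followed across xenograft tumours of HT-29, a human colon cancer line long kept in culture, under 4 diets. The 48 genes were listed by name and known role, out of 26364 gene symbols in each count file. Earlier results of these data were known when the list was made, so it is not independent of them. They comprise 22 genes of DNA replication, 22 genes of mitosis and 4 regulators of S phase entry (E2F1, E2F8, CCNE1 and CCNA2). The HT-29 cells had been placed under the skin of female NOD SCID mice aged 5 weeks, a strain that lacks T and B cells but keeps other host cells, which limits the model to tumour growth without those immune cells. The study's description gives 2 weeks of rearing on the diets and also speaks of a 3-week experimental period. RNA was sequenced from 1 tumour library of mice fed without methionine, tryptophan and niacin (the combined omission), 1 library of mice fed without tryptophan and niacin, 2 libraries of mice fed without methionine, and 1 library of mice on normal food. All 5 libraries shared the cell line, the mouse strain and the site of growth. The labels do not say whether the methionine-free pair came from separate mice. The p-values below therefore speak only of how far these samples spread, and that spread may be technical. In the model with a mean per diet the spread was shared across genes, so a gene's own replicate difference did not enter its p-value. The question put to the data was whether genes that copy DNA and genes that divide the cell moved with the diets, together or apart.

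A dividing cell first licenses its replication origins in G1, when ORC, CDC6 and CDT1 load the MCM helicase. CDC45 and GINS then switch the helicase on, and the polymerases, the sliding clamp PCNA and its loader RFC copy the DNA in S phase. Many of these genes are driven by E2F factors around S phase entry. Mitosis genes are transcribed later, in G2 and M, and many carry a CHR element in the promoter, which is bound by the DREAM complex in resting cells and by B-MYB and FOXM1 complexes in dividing cells. In intestinal epithelium these genes are known as the signature of the proliferating crypt compartment and of colon tumours.

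The promoters of the replication and mitosis genes differed in these motifs, which is a property of the reference sequence and not of the tumours. RefSeq promoters on GRCh38.p14 were at hand for 39 of the 48 genes, and the 250 bases before each start were searched on both strands. An E2F motif (TTCCCGC, or in its place TTCGCGC, or the further forms TTGCCGC and also TTGGCGC) was found in 13 of 20 replication genes (65.0%), in 2 of 16 mitosis genes (12.5%) and in 13.0% of all 27305 genes in the table. A CHR motif (TTTGAA, or in its place TTTAAA) was found in 3 of 20 replication genes (15%), in 13 of 16 mitosis genes (81.2%) and in 25.5% of all genes. A CCAAT box was found in 14 of 20 replication genes (70.0%), in 14 of 16 mitosis genes (87.5%) and in 37.0% of all genes. A match is a run of letters, not a bound site, and a missing match says nothing of the factor.

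The 130 bases before the start are printed below for 2 replication genes with an E2F motif and 3 mitosis genes with a CHR motif, to show the letters by which the groups differ. They lie at chr20:5126623-5126752 (minus strand) for PCNA, chr6:52284743-52284872 (minus strand) for MCM3, chr16:23678759-23678888 (plus strand) for PLK1, chr15:59105016-59105145 (plus strand) for CCNB2 and chr10:128126424-128126553 (minus strand) for MKI67, all upstream of the annotated transcript. Capitals mark the motifs, in the gene's own direction: GCGGGAA is an E2F motif read on the other strand, TTTGAA and TTTAAA are CHR motifs, and CCAAT or its complement ATTGG is a CCAAT box.
PCNA: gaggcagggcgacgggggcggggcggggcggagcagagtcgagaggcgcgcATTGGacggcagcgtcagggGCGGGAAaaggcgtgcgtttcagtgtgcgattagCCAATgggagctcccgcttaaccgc
MCM3: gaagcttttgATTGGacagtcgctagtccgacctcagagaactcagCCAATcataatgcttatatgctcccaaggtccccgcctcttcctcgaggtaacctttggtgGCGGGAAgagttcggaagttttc
PLK1: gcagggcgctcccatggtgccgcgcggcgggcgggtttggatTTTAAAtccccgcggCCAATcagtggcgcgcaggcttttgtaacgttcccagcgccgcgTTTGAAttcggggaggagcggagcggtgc
CCNB2: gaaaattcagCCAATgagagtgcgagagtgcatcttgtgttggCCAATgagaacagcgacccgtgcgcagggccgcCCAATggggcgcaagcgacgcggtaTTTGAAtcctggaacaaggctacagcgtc
MKI67: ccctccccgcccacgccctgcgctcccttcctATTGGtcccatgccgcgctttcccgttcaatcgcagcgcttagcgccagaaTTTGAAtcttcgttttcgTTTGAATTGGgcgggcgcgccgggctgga
The E2F motif began 59 bases before the start in PCNA and 23 bases before it in MCM3. In PLK1, CCNB2 and MKI67 a TTTGAA began 29 bases before the start, and in MKI67 it overlaps an ATTGG.

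Counts were shallow. The rounded totals were 433807 counts in the combined omission library, 613493 in the tryptophan/niacin-free library, 553424 and 678554 in the methionine-free pair and 1087985 in the normal food library. A single count was worth 0.919 to 2.31 CPM, the count scaled to a common library total, and 3 counts, the limit that a count of 0 allows, corresponded to 2.76 to 6.92 CPM. The 48 genes had 3 to 451 counts in a library, and 8 of them had fewer than 10 counts in at least 1 library. All 48 passed the filter on low counts that left 10005 genes for testing. Reads of 10 of them could be shared with an annotated pseudogene of the same name, and 12 overlap an exon on the opposite strand. Those 21 genes, PCNA, MKI67, CCNA2, E2F8, KIF23 and TROAP among them, are uncertain, since no source used here gives the strand setting or the handling of reads with several positions. The same holds for whether mouse reads were removed. The tumours held markers of colonic epithelium at 12826 to 14718 CPM in sum over 11 genes. The keratins KRT8 (6533 to 7868 CPM) and KRT18 (2087 to 3098 CPM) made up most of that sum. CDX1 and CDX2 lay at 3.26 to 14.7 CPM and did not pass the filter, and CDH17 and GPA33 lay at 9.78 to 37.7 CPM. Of 9 fibroblast markers 6 were at 0 in every library, with summed levels of 16.1 to 21.2 CPM, and of 8 endothelial markers 6 were at 0, with summed levels of 0 to 3.26 CPM. Of 8 macrophage and leukocyte markers 4 were at 0, and LYZ, which gut epithelium can also express, made up most of their 2054 to 3444 CPM. Skeletal muscle markers summed to 68.5 CPM in the tryptophan/niacin-free library and to 1.47 to 2.31 CPM in the other 4. Nearly all of the 68.5 CPM came from the myosin genes MYH1, MYH2 and MYH4, at 14, 15 and 12 counts. ACTA1 had 1 count in that library, and CKM, TNNT3, TTN and DES had 0. Host fibroblasts, vessels and leukocytes are mouse cells, while the counts are of human gene symbols on a human genome build. The low marker levels therefore do not measure how much host tissue the tumours held. In bulk tissue, fewer cells of a type and less RNA per cell cannot be told apart.

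Levels of the 48 genes were compared with each other per transcript length. Per kilobase of the longest annotated transcript, the mean level over the 5 libraries was highest for MCM7, a helicase subunit, at 109 CPM per kilobase, followed by UBE2C, the ubiquitin-conjugating enzyme of the anaphase-promoting complex, at 97.7, and PCNA at 85.7. It was lowest for POLA1, the catalytic subunit of the priming polymerase, at 2.90, and for the centromere kinesin CENPE at 5.30.

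**Figure D1:**
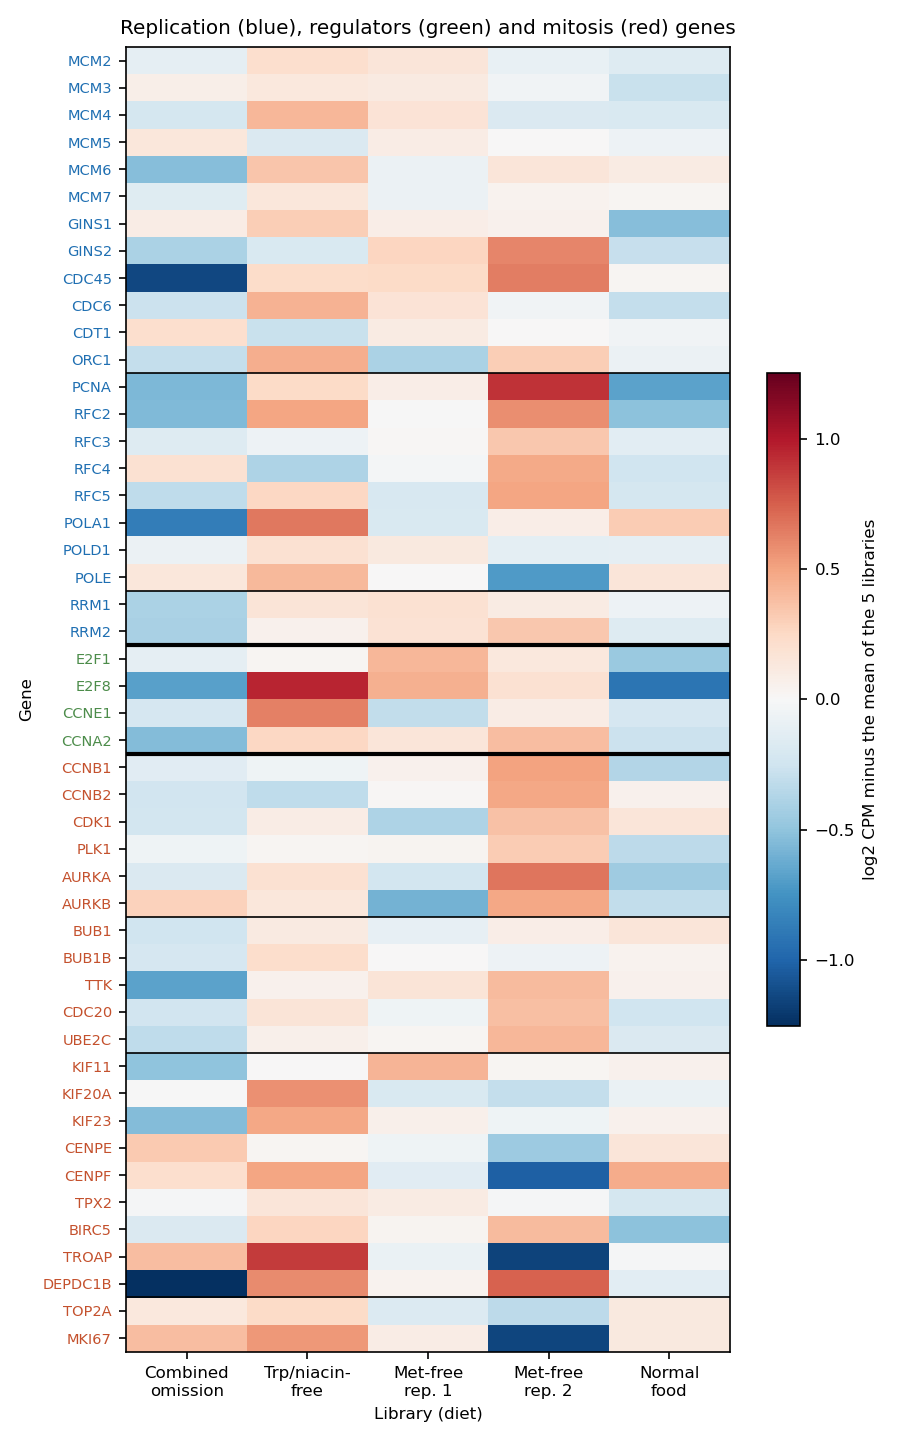
Heat map of the 48 genes (rows, in order of role) in the 5 tumour libraries (columns). Colour gives log2 CPM minus the gene's mean over the 5 libraries, red above and blue below. The column of the tryptophan/niacin-free library is red for most genes, while CDC45 and DEPDC1B are deepest blue in the combined omission and MKI67 and TROAP are blue in methionine-free replicate 2.

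On the mean log2 scale, which weights each gene alike, the 3 tumours with a single omission stood higher than the other pair. The mean log2 CPM of the replication genes was 5.87 in the combined omission tumour, 6.31 in the tryptophan/niacin-free tumour, 6.17 and 6.30 in the methionine-free tumours and 5.97 in the normal food tumour. The mitosis genes had means of 6.29 in the combined omission tumour, 6.66 in the tryptophan/niacin-free tumour, 6.40 and 6.47 in the methionine-free tumours and 6.38 in the normal food tumour. For the 4 regulators the means were 4.85 in the combined omission tumour, 5.71 in the tryptophan/niacin-free tumour, 5.41 and 5.44 in the methionine-free tumours and 4.77 in the normal food tumour. In each group the lower pair was the combined omission and normal food. The margin was narrow in mitosis, where methionine-free replicate 1 lay within 0.02 of normal food. In summed CPM, where abundant genes such as MKI67 weigh most, mitosis did not keep that order, with 2284 CPM in the combined omission tumour, 2838 in the tryptophan/niacin-free tumour, 2237 and 2029 in the methionine-free tumours and 2247 in the normal food tumour. By that measure both methionine-free tumours lay below the other 3. The summed replication genes kept the order, with 1740.4 CPM in the combined omission tumour, 2372 in the tryptophan/niacin-free tumour, 2082 and 1988 in the methionine-free tumours and 1815 in the normal food tumour. The tryptophan/niacin-free library held the highest value of 26 of the 48 genes and methionine-free replicate 2 that of 16. The combined omission held the lowest value of 18 genes, normal food that of 12 and methionine-free replicate 2 that of 10. Methionine-free replicate 1 and the tryptophan/niacin-free library held the lowest value of 4 genes each. The shares over all genes were not counted for the highest and lowest values.

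**Figure D2:**
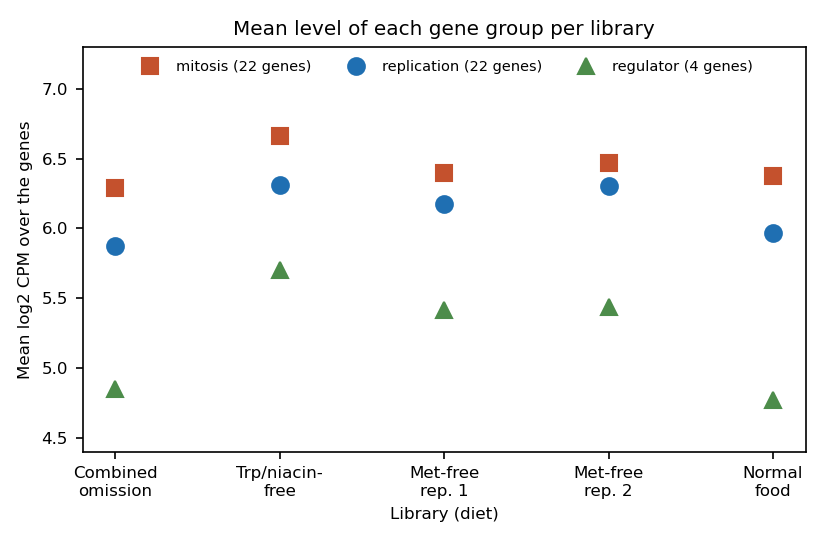
Mean log2 CPM over the 22 mitosis genes (squares), 22 replication genes (circles) and 4 regulators (triangles) in each of the 5 libraries. In each group the tryptophan/niacin-free library is highest, and the combined omission and normal food libraries are lowest.

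The counts of single genes behind this order can be read against all genes. For 21 of the 48 genes the 3 single-omission libraries all lay above both the combined omission and the normal food library, and for 1 gene, CENPE, all 3 lay below. Among all 10005 genes tested the shares were 13.9% above and 15.4% below. The 21 were 11 of 22 replication genes (MCM2, MCM4, GINS2, CDC45, CDC6, PCNA, RFC2, RFC3, RFC5, RRM1 and RRM2), 7 of 22 mitosis genes (CCNB1, PLK1, CDC20, UBE2C, TPX2, BIRC5 and DEPDC1B) and the regulators E2F1, E2F8 and CCNA2. This pattern was chosen after its values were seen and was given no test. The sample titles of the combined omission and normal food libraries follow one style and those of the other 3 libraries another, so this split and any difference in handling behind the titles cannot be told apart.

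None of the 48 genes passed edgeR's quasi-likelihood test at an adjusted p of 0.05 in any of the 6 comparisons that could be tested. With methionine-free against normal food, 0 of 48 genes were called higher and 0 lower, where 0% of all genes tested were called higher and 0.23% lower. At an unadjusted p under 0.05, PCNA and E2F8 were higher and CENPF lower, while 2.47% of all genes were higher and 5.21% lower at that level. DESeq2 called 0 of the 48 and had 0 at an unadjusted p under 0.05, and limma-voom called 0 with 2 higher and 1 lower. The design had little power at these depths: in counts simulated for this comparison over 10005 genes, the test recovered 47 of 50 genes raised by 2 and 31 of 50 lowered by 2 on the log2 scale, but 5 of 50 raised by 1 and 3 of 50 lowered by 1. The altered genes were drawn only from genes above a set mean level, which POLA1, ORC1, CCNE1 and E2F8 do not reach. Every simulated gene had the same spread, without a relation to transcript length, so recovery may be lower for such genes.

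By direction, 34 of the 48 genes had a log2 fold change above 0 in methionine-free against normal food, against 50.3% of all genes tested. The replication genes had a median of 0.27 with 18 of 22 above 0, the mitosis genes a median of 0.20 with 12 of 22 above 0, and the regulators a median of 0.67 with 4 of 4 above 0; the median of all genes was 0.00. Both methionine-free libraries lay above normal food in 28 genes and below it in 10, and they lay on either side of it in the other 10. The shares over all genes were not counted for this pattern, and both libraries were set against the same normal food library. These numbers therefore only describe the 48 genes. The replication median minus the mitosis median was 0.07, and the same quantity between methionine-free replicates 2 and 1 was -0.07. By these uncorrected medians the groups differed no more than within 1 diet. By group means they stood further apart: replication minus mitosis was -0.22 and -0.17 in the methionine-free libraries and -0.41 in normal food. The mitosis median was -0.01 without replicate 2. After a correction for transcript length the replication median was 0.21 and the mitosis median -0.04.

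Setting the tryptophan/niacin-free tumour, or the combined omission tumour, against normal food compares 1 library with 1 library and has no replicate check. They were read by a rule of size, a difference of at least 2-fold with a 95% exact interval of the count ratio that excludes 1, which covers counting error only. In tryptophan/niacin-free against normal food, 2 of the 48 genes were higher by this rule (E2F8 and RFC2) and 0 lower, where 1.01% of all genes were higher and 2.51% lower. Of the 48 genes 39 lay above 0, against 49.3% of all genes, with medians of 0.28 for replication, 0.33 for mitosis and 0.68 for the regulators. The tryptophan/niacin-free library was also the one with skeletal muscle markers at 68.5 CPM, nearly all of it from MYH1, MYH2 and MYH4. There 4 of the 8 markers were at 0, against 6 or 7 at 0 in the other libraries. The part of these markers in the values above was not tested. In the combined omission against normal food, 0 were higher and 1 was lower (CDC45), where 0.95% of all genes were higher and 1.07% lower. There 23 of 48 lay above 0, against 48.5% of all genes, with medians of -0.03 for replication, 0.01 for mitosis and 0.12 for the regulators. The methionine-free pair set against each other gave 1 of the 48 higher in replicate 2 (AURKB) and 2 lower (MKI67 and TROAP), so 3 genes met the same rule between libraries of 1 diet; all genes gave 2.43% higher and 4.17% lower there. Of the 48 genes 26 lay above 0 between that pair, against 50.4% of all genes.

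**Figure D3:**
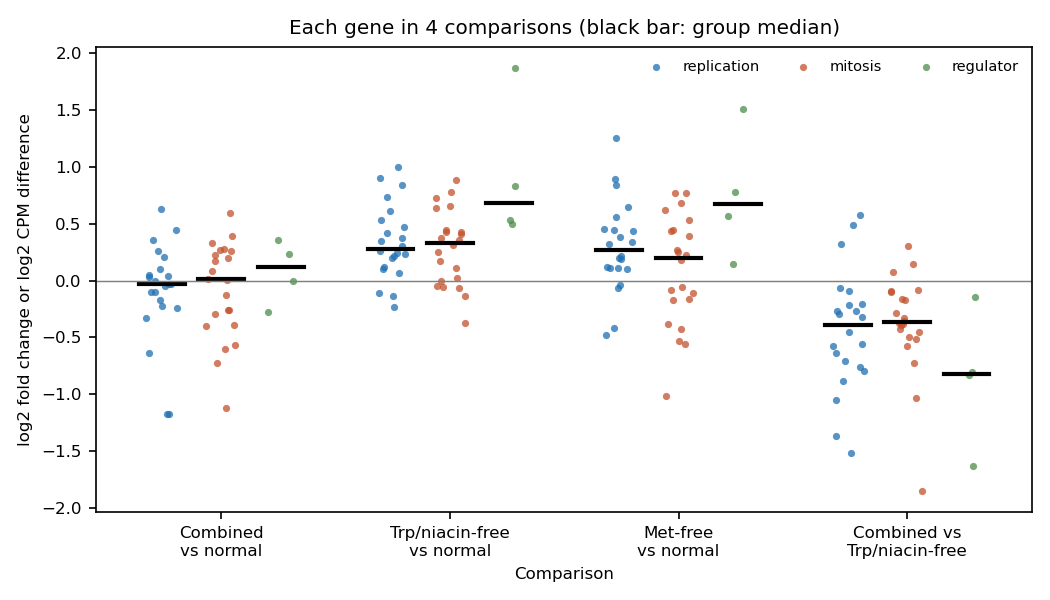
Log2 fold change or log2 CPM difference of each of the 48 genes (points, coloured by group) in 4 comparisons, with the group medians as black bars. The points of tryptophan/niacin-free against normal lie mostly above 0, with medians of 0.28, 0.33 and 0.68, and those of the combined omission against tryptophan/niacin-free mostly below 0, with medians of -0.39, -0.36 and -0.82.

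Leaving out all 3 nutrients was also set against leaving out fewer. In the combined omission against tryptophan/niacin-free, 6 of the 48 genes were lower by the size rule and 0 higher, where 1.73% of all genes were lower and 2.31% higher. The 6 were CDC45, RFC2, POLA1, E2F8, KIF23 and DEPDC1B, and 6 of the 48 genes lay above 0, against 50% of all genes. In the combined omission against methionine-free, edgeR called 0 of 48 genes higher and 0 lower, where 0.03% of all genes were called higher and 0% lower. At an unadjusted p under 0.05, TROAP was higher and CDC45, PCNA and DEPDC1B were lower, where 4.62% of all genes were higher and 2.95% lower. DESeq2 called 0 with 0 at an unadjusted p under 0.05, and limma-voom called 0 with 2 higher and 3 lower. Of the 48 genes 12 lay above 0, against 48.8% of all genes, with medians of -0.36 for replication, -0.27 for mitosis and -0.63 for the regulators.

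In tryptophan/niacin-free against methionine-free, edgeR called 0 of 48 genes, where 0% of all genes were called in either direction. CENPF, TROAP and MKI67 were higher at an unadjusted p under 0.05 and 0 of the 48 lower, where 2.57% of all genes were higher and 2.34% lower. DESeq2 called 0 with 0 at that level, and limma-voom 0 with 3 higher. Of the 48 genes 30 lay above 0, against 48.7% of all genes, and the medians were 0.13 for replication and 0.10 for mitosis. The mitosis median was -0.07 without methionine-free replicate 1. The comparisons above share libraries with each other, so their values do not support one another.

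The interaction asked whether leaving out methionine went with another change when tryptophan and niacin were also left out. It is the methionine change in food without tryptophan and niacin minus the methionine change in food with them. EdgeR called 0 of 48 genes, where 0.42% of all genes were called higher and 0.01% lower. At an unadjusted p under 0.05, 6 genes were lower (CDC45, PCNA, RFC2, E2F8, CCNA2 and DEPDC1B) and 0 higher, where 1.93% of all genes were lower and 4.52% higher. DESeq2 called 0 with 1 lower, and limma-voom called 0 with 6 lower. The smallest adjusted p by edgeR was 0.235, for PCNA, E2F8 and DEPDC1B. Of the 48 genes 9 lay above 0, against 49.1% of all genes, and the medians were -0.85 for replication, -0.44 for mitosis and -1.26 for the regulators. The replication median lay below the mitosis median by 0.41, and by 0.21 to 0.27 when either methionine-free library was left out. Since this quantity holds normal food, the combined omission and both single omissions, it restates the order of the libraries given above. In the additive model, which averages each omission over the other, edgeR called 0 of 48 genes for methionine, where 0% of all genes were called, with 1 lower at an unadjusted p under 0.05 (CENPF) beside 0.89% of all genes. It called 0 of 48 for tryptophan and niacin, where again 0% of all genes were called, with 1 higher (TROAP) beside 0.86% of all genes. DESeq2 called 0 with 0 at that level in both, and limma-voom 0 with the same numbers as edgeR. Of the 48 genes 23 lay above 0 for methionine and 23 for tryptophan and niacin, against 49.4% and 49.3% of all genes. Medians in that model lay between -0.11 and 0.01 for replication and mitosis.

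Among the licensing and helicase genes, CDC45 was the one that departed most. This helicase activator had 18.4 CPM (8 counts) in the combined omission tumour, 53.8 in the tryptophan/niacin-free tumour, 52.4 and 64.8 in the methionine-free tumours and 45.0 in the normal food tumour. The combined omission value was the lowest, and the other 4 lay between 45.0 and 64.8 CPM. It was 2.45-fold lower in the combined omission than in normal food (95% interval 1.15 to 6.0) and 2.85-fold lower than in the tryptophan/niacin-free tumour (1.29 to 7.13). Against methionine-free, its log2 fold change was -1.74 (SE 0.60, adjusted p = 0.401 by edgeR). Of the other licensing and helicase genes, MCM6, MCM7 and GINS2 were also lowest in the combined omission, while CDT1, CDC6 and ORC1 were not. CDT1, the licensing factor that geminin inhibits, had 41.5 CPM in the combined omission tumour, 29.3 in the tryptophan/niacin-free tumour, 37.9 and 32.4 in the methionine-free tumours and 34.0 in the normal food tumour, on 18 to 37 counts. The combined omission was the highest there, but its count ratio to tryptophan/niacin-free was 1.45, with a 95% interval of 0.711 to 2.95. CDC6 had 36.9 CPM in the combined omission tumour, 63.6 in the tryptophan/niacin-free tumour, 50.6 and 39.8 in the methionine-free tumours and 35.8 in the normal food tumour. ORC1, the largest ORC subunit, ranged from 12.6 to 26.1 CPM on 6 to 18 counts, too few to order the libraries.

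Of the GINS subunits, GINS1 was lowest in normal food and GINS2 in the combined omission. GINS1 had 53.0 CPM in the combined omission tumour, 63.6 in the tryptophan/niacin-free tumour, 52.4 and 47.2 in the methionine-free tumours and 33.1 in the normal food tumour. Its count ratio of tryptophan/niacin-free to normal food was 1.87 (95% interval 1.16 to 3.02), under the 2-fold limit. GINS2 had 16.1 CPM in the combined omission tumour, 19.6 in the tryptophan/niacin-free tumour, 27.1 and 32.4 in the methionine-free tumours and 17.5 in the normal food tumour. Its log2 fold change of 0.84 in methionine-free against normal food (SE 0.56, adjusted p = 0.779 by edgeR) was the largest among the licensing and helicase genes. The methionine-free pair was the highest here, but 7 to 22 counts stand behind each value.

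The MCM2 to MCM7 helicase subunits differed in how far they varied. MCM7 had 307 CPM in the combined omission tumour, 386 in the tryptophan/niacin-free tumour, 322 and 321 in the methionine-free tumours and 345 in the normal food tumour. MCM6 had 59.9 CPM in the combined omission tumour, 116 in the tryptophan/niacin-free tumour, 83.1 and 89.9 in the methionine-free tumours and 94.7 in the normal food tumour, with a log2 fold change of -0.06 (SE 0.41) in methionine-free against normal food. MCM4 had 152 CPM in the combined omission tumour, 245 in the tryptophan/niacin-free tumour, 199 and 143 in the methionine-free tumours and 154 in the normal food tumour. In MCM4 and MCM6 the tryptophan/niacin-free tumour was the highest, and the ratio of the combined omission to it was 0.638 for MCM4 (95% interval 0.470 to 0.857) and 0.531 for MCM6 (0.325 to 0.842), short of 2-fold. MCM5 did not follow them, with 62.2 CPM in the combined omission tumour, 50.5 in the tryptophan/niacin-free tumour, 59.6 and 51.6 in the methionine-free tumours and 53.3 in the normal food tumour. MCM2 ranged from 119 to 166 CPM and MCM3 from 129 to 178 CPM. The proteins form 1 hexamer with 1 copy of each, yet the 6 log2 fold changes in methionine-free against normal food ran from -0.06 to 0.33, all within their standard errors.

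At the replication fork, the sliding clamp PCNA had the lowest adjusted p of the 48 genes in methionine-free against normal food. It had 73.8 CPM in the combined omission tumour, 134 in the tryptophan/niacin-free tumour, 116 and 192 in the methionine-free tumours and 68.0 in the normal food tumour. The 3 single-omission libraries did not overlap the other pair. The mean of 154 ± 53.7 CPM in methionine-free tumours (SD, n = 2), against 68.0 in the single normal food tumour, gave a log2 fold change of 1.26 (SE 0.44, adjusted p = 0.370 by edgeR). With the correction for transcript length described below it was 0.85. The SE came from the spread shared across genes, not from the SD of this pair. PCNA has 3 annotated pseudogenes of its name.

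The clamp loader genes split. RFC2 had 27.7 CPM in the combined omission tumour, 61.9 in the tryptophan/niacin-free tumour, 41.6 and 58.9 in the methionine-free tumours and 28.5 in the normal food tumour. Again the single omissions were the higher 3. RFC2 was 2.11-fold higher in tryptophan/niacin-free than in normal food (95% interval 1.28 to 3.51), and its log2 difference of 1.00 was 0.99, just under the limit, when no filter was applied. RFC4 had 30.0 CPM in the combined omission tumour, 19.6 in the tryptophan/niacin-free tumour, 25.3 and 33.9 in the methionine-free tumours and 21.1 in the normal food tumour, with tryptophan/niacin-free the lowest. RFC5 had 30.0 CPM in the combined omission tumour, 47.3 in the tryptophan/niacin-free tumour, 32.5 and 50.1 in the methionine-free tumours and 32.2 in the normal food tumour. RFC3 varied least, from 41.5 to 54.5 CPM.

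Among the polymerases, POLA1 had 6.92 CPM in the combined omission tumour, 26.1 in the tryptophan/niacin-free tumour, 12.6 and 14.7 in the methionine-free tumours and 19.3 in the normal food tumour. The combined omission value rests on 3 counts. The ratio of the combined omission to tryptophan/niacin-free was 0.272 (95% interval 0.0507 to 0.949). POLE, the catalytic subunit of the leading strand polymerase, had 154 CPM in the combined omission tumour, 191 in the tryptophan/niacin-free tumour, 139 and 76.6 in the methionine-free tumours and 154 in the normal food tumour. The low value was that of methionine-free replicate 2, and the log2 fold change against normal food was -0.48 (SE 0.42, adjusted p = 0.844 by edgeR), the lowest of the fork genes. POLD1, of the lagging strand polymerase, ranged from 81.1 to 114 CPM.

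Ribonucleotide reductase, which supplies the deoxynucleotides for this synthesis, showed small differences. RRM1 had 119.9 CPM in the combined omission tumour, 183 in the tryptophan/niacin-free tumour, 181 and 156 in the methionine-free tumours and 151 in the normal food tumour. RRM2 had 108 CPM in the combined omission tumour, 153 in the tryptophan/niacin-free tumour, 163 and 168 in the methionine-free tumours and 128 in the normal food tumour. Both subunits were lowest in the combined omission. Their log2 fold changes in methionine-free against normal food were 0.22 (SE 0.42) for RRM1 and 0.44 (SE 0.42) for RRM2.

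Among the regulators of S phase entry E2F8 differed most, on few counts. E2F8, a repressor of E2F targets that is itself an E2F target, had 9.22 CPM (4 counts) in the combined omission tumour, 35.9 (22 counts) in the tryptophan/niacin-free tumour, 23.5 (13 counts) and 17.7 (12 counts) in the methionine-free tumours and 7.35 (8 counts) in the normal food tumour. The single omissions did not overlap the other pair. E2F8 was 4.73-fold higher in tryptophan/niacin-free than in normal food (95% interval 2.03 to 12.3) and 3.79-fold lower in the combined omission than in tryptophan/niacin-free (1.29 to 15.1). In methionine-free against normal food its log2 fold change was 1.51 (SE 0.70, adjusted p = 0.603 by edgeR). CCNA2, the cyclin of S phase and G2, had 46.1 CPM in the combined omission tumour, 84.8 in the tryptophan/niacin-free tumour, 75.9 and 82.5 in the methionine-free tumours and 56.1 in the normal food tumour. The 3 single omissions were again the high libraries, and close to each other. E2F1, the activating E2F, had 64.5 CPM in the combined omission tumour, 73.4 in the tryptophan/niacin-free tumour, 94.0 and 70.7 in the methionine-free tumours and 49.6 in the normal food tumour. CCNE1, the G1/S cyclin, had 13.8 CPM in the combined omission tumour, 27.7 in the tryptophan/niacin-free tumour, 12.6 and 16.2 in the methionine-free tumours and 13.8 in the normal food tumour, so there the methionine-free tumours were level with normal food.

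**Figure D4:**
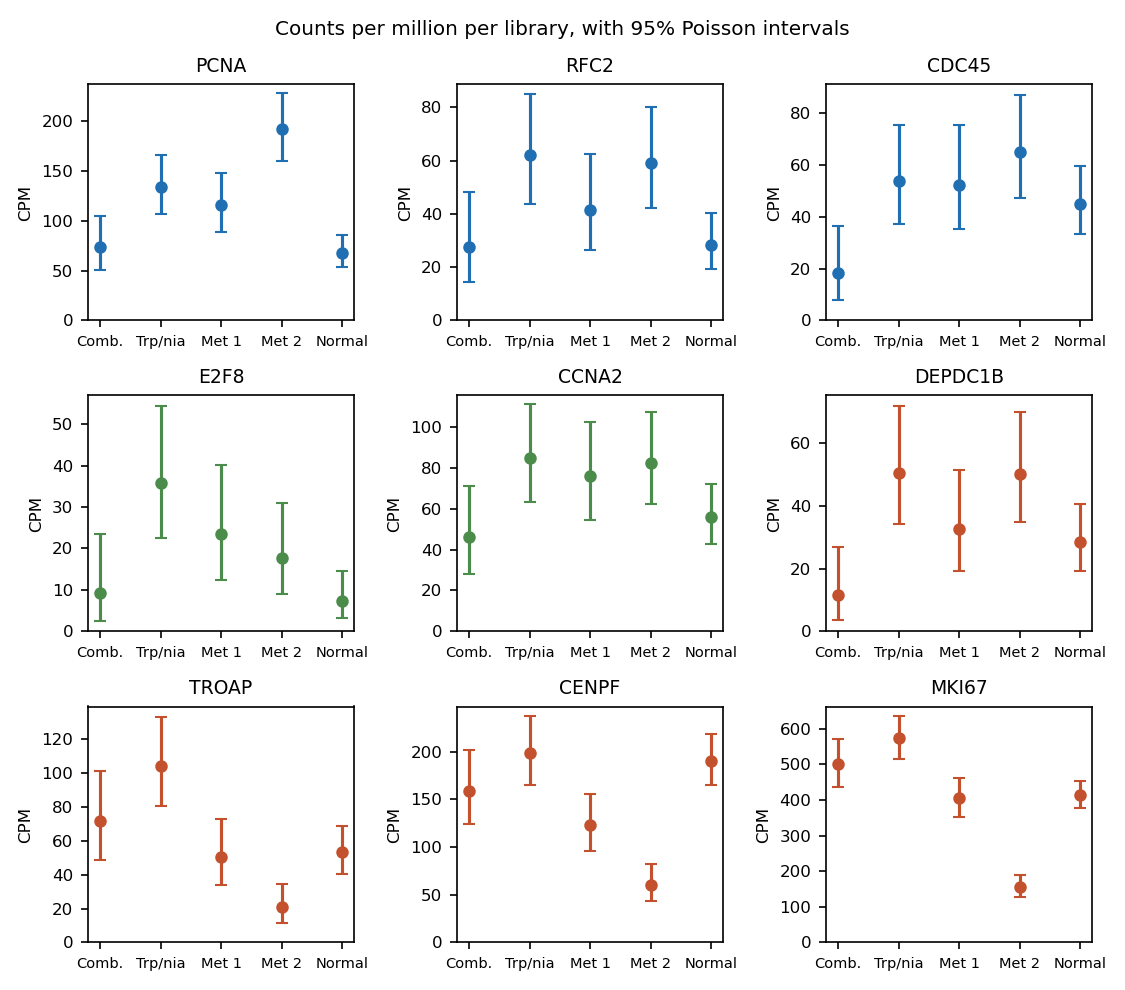
CPM of 9 genes in each library, in the order combined omission, tryptophan/niacin-free, methionine-free replicates 1 and 2, normal food, with exact 95% Poisson intervals of the counts as bars. In PCNA, RFC2, E2F8 and CCNA2 the 3 single-omission libraries lie above both others, while TROAP, CENPF and MKI67 are lowest in methionine-free replicate 2.

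Among the mitotic kinases and cyclins, AURKA, the centrosome kinase, had 83.0 CPM in the combined omission tumour, 111 in the tryptophan/niacin-free tumour, 79.5 and 139 in the methionine-free tumours and 68.0 in the normal food tumour. Its log2 fold change in methionine-free against normal food was 0.77 (SE 0.42, adjusted p = 0.713 by edgeR), the largest of this role, but the methionine-free pair spanned the tryptophan/niacin-free and combined omission values. AURKB, the kinase of the chromosomal passenger complex, had 46.1 CPM in the combined omission tumour, 42.4 in the tryptophan/niacin-free tumour, 23.5 and 48.6 in the methionine-free tumours and 29.4 in the normal food tumour. The methionine-free pair held both its highest and its lowest value, 2.25-fold apart (95% interval of replicate 2 over replicate 1, 1.15 to 4.65). PLK1, whose promoter is printed above, had 99.1 CPM in the combined omission tumour, 108 in the tryptophan/niacin-free tumour, 105 and 118 in the methionine-free tumours and 80.9 in the normal food tumour. CCNB1 had 106 CPM in the combined omission tumour, 116 in the tryptophan/niacin-free tumour, 121 and 153 in the methionine-free tumours and 90.1 in the normal food tumour. PLK1 and CCNB1 were lowest in normal food by small margins. CCNB2, the other mitotic B cyclin, had 80.7 CPM in the combined omission tumour, 78.2 in the tryptophan/niacin-free tumour, 95.8 and 124 in the methionine-free tumours and 99.3 in the normal food tumour. CDK1, their partner kinase, had 69.2 CPM in the combined omission tumour, 89.7 in the tryptophan/niacin-free tumour, 61.4 and 97.3 in the methionine-free tumours and 91.0 in the normal food tumour. Neither CCNB2 nor CDK1 set the single omissions apart.

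Of the spindle checkpoint and anaphase-promoting complex genes, 0 of 5 met the size rule. UBE2C had 71.5 CPM in the combined omission tumour, 96.2 in the tryptophan/niacin-free tumour, 90.3 and 111 in the methionine-free tumours and 78.1 in the normal food tumour. CDC20, the activator of the complex, had 87.6 CPM in the combined omission tumour, 119 in the tryptophan/niacin-free tumour, 99.4 and 124 in the methionine-free tumours and 86.4 in the normal food tumour. The checkpoint kinase BUB1 had 39.2 CPM in the combined omission tumour, 52.2 in the tryptophan/niacin-free tumour, 43.4 and 45.7 in the methionine-free tumours and 52.4 in the normal food tumour. BUB1 was level in the tryptophan/niacin-free and normal food tumours. The checkpoint kinase TTK ranged from 16.1 CPM in the combined omission tumour to 33.9 in methionine-free replicate 2, and BUB1B from 78.4 in the combined omission tumour to 109 in the tryptophan/niacin-free tumour. The highest value lay in a single-omission tumour for 4 of the 5 genes, with BUB1 the exception. The 5 log2 fold changes of this role in methionine-free against normal food ran from -0.17 to 0.44, and all 5 genes lay below 0 in the combined omission against tryptophan/niacin-free, from -0.72 to -0.35.

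The kinesin, spindle and kinetochore genes went different ways. DEPDC1B, which acts on cell de-adhesion before mitosis, had 11.5 CPM (5 counts) in the combined omission tumour, 50.5 in the tryptophan/niacin-free tumour, 32.5 and 50.1 in the methionine-free tumours and 28.5 in the normal food tumour. The combined omission was 4.28-fold below tryptophan/niacin-free (95% interval 1.65 to 14.1), and its log2 fold change against methionine-free was -1.92 (SE 0.69, adjusted p = 0.453 by edgeR). KIF23, the kinesin of the central spindle, had 59.9 CPM in the combined omission tumour, 129 in the tryptophan/niacin-free tumour, 92.2 and 78.1 in the methionine-free tumours and 91.9 in the normal food tumour. Its ratio of the combined omission to tryptophan/niacin-free was 0.477 (95% interval 0.294 to 0.751). The tryptophan/niacin-free tumour was the highest here and the combined omission tumour the lowest, with the other libraries between them. BIRC5 (survivin), another passenger complex subunit, had 71.5 CPM in the combined omission tumour, 101 in the tryptophan/niacin-free tumour, 83.1 and 98.7 in the methionine-free tumours and 56.1 in the normal food tumour. Its log2 fold change in methionine-free against normal food was 0.77 (SE 0.42, adjusted p = 0.713 by edgeR).

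Against these, 4 genes of the role were lowest in the methionine-free tumours. CENPF, a kinetochore protein, had 159 CPM in the combined omission tumour, 199 in the tryptophan/niacin-free tumour, 123 and 60.4 in the methionine-free tumours and 190.3 in the normal food tumour. Its log2 fold change was -1.02 in methionine-free against normal food (SE 0.41, adjusted p = 0.532 by edgeR) and -0.65 with the correction for transcript length. TROAP, a spindle-associated protein, had 71.5 CPM in the combined omission tumour, 104 in the tryptophan/niacin-free tumour, 50.6 and 20.6 in the methionine-free tumours and 53.3 in the normal food tumour. Its log2 fold change of 1.48 in tryptophan/niacin-free against methionine-free (SE 0.44, adjusted p = 0.554 by edgeR) had the smallest adjusted p of the 48 genes there. CENPE had 57.6 CPM in the combined omission tumour, 47.3 in the tryptophan/niacin-free tumour, 43.4 and 29.5 in the methionine-free tumours and 50.6 in the normal food tumour. KIF20A, a kinesin of cytokinesis, had 46.1 CPM in the combined omission tumour, 71.7 in the tryptophan/niacin-free tumour, 39.8 and 33.9 in the methionine-free tumours and 43.2 in the normal food tumour. In these 4 genes methionine-free replicate 2 held the lowest value. The spindle assembly factor TPX2 ranged from 169 to 227 CPM and the spindle motor KIF11 from 41.5 to 81.3 CPM.

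The chromosome structure genes followed the same library. MKI67, the Ki-67 protein that coats mitotic chromosomes and serves as the usual proliferation marker, had 500.2 CPM in the combined omission tumour, 574 in the tryptophan/niacin-free tumour, 405 and 156 in the methionine-free tumours and 415 in the normal food tumour. Methionine-free replicate 2 was the lowest, and its ratio to replicate 1 was 0.419 (95% interval 0.329 to 0.530). In methionine-free against normal food the log2 fold change was -0.53 (SE 0.46, adjusted p = 0.844 by edgeR). TOP2A, the topoisomerase of dividing cells, had 293 CPM in the combined omission tumour, 323 in the tryptophan/niacin-free tumour, 235 and 193 in the methionine-free tumours and 289.5 in the normal food tumour. In MKI67 and TOP2A the methionine-free pair lay below the other 3 libraries.

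Transcript length moved with the difference between the methionine-free replicates. Across the 48 genes, the log2 CPM of replicate 2 minus replicate 1 had a Pearson r of -0.75 and a Spearman rho of -0.76 with log2 length of the longest annotated transcript. Across 9583 genes with a length the values were -0.42 and -0.44. These are correlations across genes that share their libraries, given as a description without a p. Split at 3204.5 bases, shorter replication genes had a median difference of 0.45 and longer ones -0.13, and the mitosis genes 0.45 and -0.12. The same relation was present in methionine-free against normal food, with an r of -0.63 across the 48 genes, and was weak in tryptophan/niacin-free against normal food (-0.17) and in the combined omission against normal food (-0.09), where no methionine-free library enters. After the dependence on length was removed from each library, the replication median in methionine-free against normal food was 0.21 and the mitosis median -0.04. The order of the libraries held for 19 of the 48 genes instead of 21, where 14.1% of all genes then lay above and 15.1% below. The part of transcript length in the low values of MKI67, CENPF and POLE in replicate 2 was not tested.

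**Figure D5:**
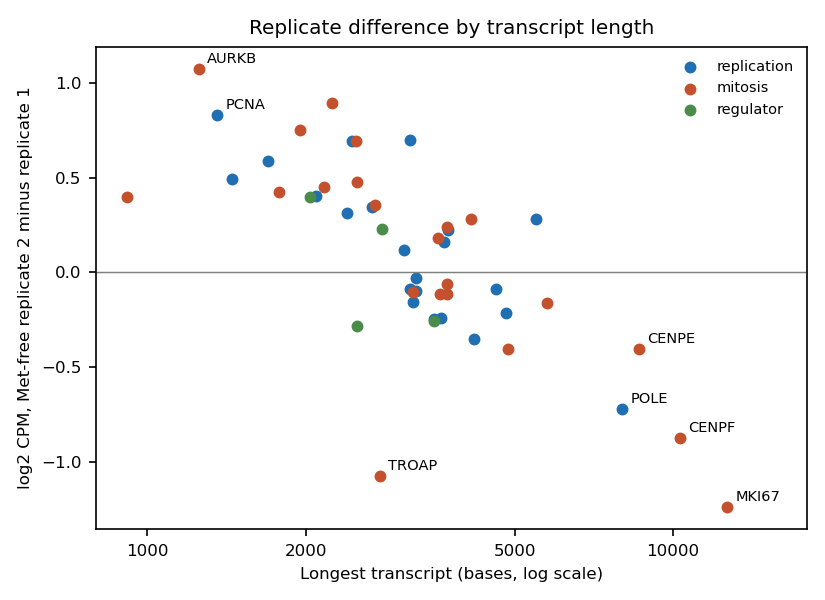
Log2 CPM of methionine-free replicate 2 minus replicate 1 for each of the 48 genes (points, coloured by group) against the length of the longest annotated transcript in bases (log axis). Short transcripts such as AURKB and PCNA lie above 0 and long ones such as POLE, CENPF and MKI67 below it, with TROAP low at a middle length.

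The balance between copying and division was read from the difference of the group means within each library. The replication mean minus the mitosis mean, in log2 CPM, was -0.42 in the combined omission tumour, -0.35 in the tryptophan/niacin-free tumour, -0.22 and -0.17 in the methionine-free tumours and -0.41 in the normal food tumour. The methionine-free pair was nearest to 0 and the tryptophan/niacin-free tumour was closer to the combined omission and normal food. After the length correction the differences were -0.41 in the combined omission tumour, -0.35 in the tryptophan/niacin-free tumour, -0.22 and -0.19 in the methionine-free tumours and -0.40 in the normal food tumour. The order was the same. With 1 library in 3 of the diets this difference was given no test. Genes were also grouped by promoter motif. In methionine-free against normal food the median log2 fold change was -0.05 for 13 genes with a CHR motif alone, 0.22 for 12 genes with an E2F motif alone, 0.33 for 4 genes with both and 0.42 for 10 genes with neither. This order was not the same throughout. The medians were 0.20 for CHR alone and 0.25 for E2F alone in tryptophan/niacin-free against normal food, -0.0021 and -0.019 in the combined omission against normal food, and 0.29 and -0.08 in tryptophan/niacin-free against methionine-free.

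The rest of the cell cycle machinery was read from lists of other genes. Of 45 other replication genes 41 could be tested, and 29 lay above 0 in methionine-free against normal food with a median of 0.26, where 50.3% of all genes lay above 0. Of 56 other mitosis genes 54 could be tested, and 35 lay above 0 with a median of 0.14. EdgeR called 0 genes of either list, where it called 0% of all genes higher and 0.23% lower. At an unadjusted p under 0.05 there were 4 higher and 0 lower replication genes and 3 higher and 1 lower mitosis genes, beside 2.47% of all genes higher and 5.21% lower. In the interaction 15 of 41 replication genes and 10 of 54 mitosis genes lay above 0, with medians of -0.33 and -0.49, where 49.1% of all genes lay above 0. In tryptophan/niacin-free against methionine-free, 15 of 41 other replication genes lay above 0 with a median of -0.05, where the 22 replication genes had 0.13. By the size rule, the replication fork gene WDHD1, the chromatin assembly subunit CHAF1B and the kinesin KIF18B were higher in tryptophan/niacin-free than in normal food, by 1.02, 1.37 and 1.20 on the log2 scale. By that rule 1.01% of all genes were higher there and 2.51% lower. Genes of these lists beyond the rule in the comparisons of the combined omission are not named here.

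Transcription factors of the cell cycle, G1 cyclins and CDK inhibitors were read in the same way. Of 19 transcription factor and pocket protein genes 15 could be tested, with medians of 0.05 in methionine-free and -0.01 in tryptophan/niacin-free against normal food. Of 22 G1 cyclins and CDK inhibitors 19 could be tested, with medians of -0.11 and 0.21 in the same comparisons. EdgeR called 0 genes of either list in methionine-free against normal food, with 0 transcription factor genes and 1 higher and 1 lower G1 gene at an unadjusted p under 0.05, beside the same shares of all genes as above. The higher one was CDK4, with a log2 fold change of 0.94 (SE 0.45, adjusted p = 0.618 by edgeR), and the lower one CDKN1B. CDK4 had 171 CPM in the combined omission tumour, 214 in the tryptophan/niacin-free tumour, 211 and 280 in the methionine-free tumours and 135 in the normal food tumour. The CDK inhibitor CDKN1B (p27) had 55.3 CPM in the combined omission tumour, 37.5 in the tryptophan/niacin-free tumour, 48.8 and 32.4 in the methionine-free tumours and 80.9 in the normal food tumour. It was highest in normal food, and its ratio of tryptophan/niacin-free to normal food was 0.450 (95% interval 0.271 to 0.719). CDKN1A (p21) had 41.5 CPM in the combined omission tumour, 52.2 in the tryptophan/niacin-free tumour, 48.8 and 35.4 in the methionine-free tumours and 70.8 in the normal food tumour, so it too was highest in normal food. CDKN1C (p57) had 23.1 CPM in the combined omission tumour, 1.63 (1 count) in the tryptophan/niacin-free tumour, 10.8 and 10.3 in the methionine-free tumours and 17.5 in the normal food tumour, and the ratio of tryptophan/niacin-free to normal food was 0.0906 (95% interval 0.00218 to 0.570). CDKN2B (p15) went the other way, with 24.5 CPM in tryptophan/niacin-free and 10.1 in normal food, a ratio of 2.35 (95% interval 1.01 to 5.65). CDKN2A was higher in the single omissions, with 85.3 CPM in the combined omission tumour, 117 in the tryptophan/niacin-free tumour, 119 and 139 in the methionine-free tumours and 98.3 in the normal food tumour. LIN54, the DREAM subunit that binds the CHR element, had 2.31 CPM (1 count) in the combined omission tumour, 22.8 in the tryptophan/niacin-free tumour, 28.9 and 13.3 in the methionine-free tumours and 31.3 in the normal food tumour, and the ratio of the combined omission to normal food was 0.0734 (95% interval 0.00181 to 0.438).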

How the data were processed

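mRNA libraries were made with a stranded kit, per the labels' protocols. The authors deposited expected counts per gene symbol, estimated counts that need not be whole, 1 file per library. Per the submitters' processing notes the build was hg19, and the tools named are featureCounts, Subread 2.0.0, SAMtools 0.1.18, Bowtie2 2.2.8 and TopHat2 2.1.1. For the annotation, the strand setting and any removal of mouse reads, nothing is given in the sources used here.

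The counts were rounded to whole numbers (totals 433807 to 1087985). CPM is the count scaled to the rounded library total. log2 CPM used TMM scaling (factors 0.926 to 1.04) and a prior count of 2. filterByExpr on the diets kept 10005 of 26364 genes. The 4 diet means were fitted to the 5 libraries with edgeR 4.0.16 in R 4.3.3 (quasi-likelihood test, p adjusted by Benjamini-Hochberg over the 10005 genes, threshold 0.05, 1 residual degree of freedom, biological coefficient of variation 0.207), so diets with 1 library were assumed to vary like the methionine-free pair. The prior degrees of freedom of that fit were infinite. A gene's SE and p thus took the spread shared across genes, not its own replicate difference. An additive model had 2 residual degrees of freedom, 10.4 prior ones and a coefficient of 0.227. Comparisons between lone libraries used the size rule and exact conditional binomial intervals; intervals allow for counting error alone, because these counts do not tell PCR copies apart. limma 3.58.1 and DESeq2 1.42.0 were alternatives. The edgeR step was tested on simulated counts. It made 9 false calls, beside 47, 31, 5 and 3 genes recovered at true log2 changes of 2, -2, 1 and -1.

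Transcript length is the longest transcript of GENCODE on GRCh38, used without coordinates, and was removed from log2 CPM by lowess (span 0.3). Promoter sequences are RefSeq's, on GRCh38.p14. Genes were named where they passed the threshold or the size rule, where they had the highest or lowest log2 fold change of their role in methionine-free or tryptophan/niacin-free against normal food, and otherwise by range; further genes were named after their values were seen. The members and lists were chosen with earlier results of these data known.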

Additional observations from a re-analysis of the deposited data

Results flagged for a closer look

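On the mean log2 scale, in each group of genes the change that went with leaving out methionine had opposite signs with and without tryptophan and niacin in the food; the difference was not tested. For the replication genes, mean log2 CPM was 0.44 lower in the combined omission than in the tryptophan/niacin-free tumour (-0.44), and 0.20 and 0.34 higher in the methionine-free tumours than in normal food. The change without tryptophan and niacin minus the mean change with them was -0.71. For the mitosis genes the values were -0.37 in the combined omission against tryptophan/niacin-free and 0.02 and 0.10 in methionine-free against normal food, a difference of -0.43. The mitosis values in methionine-free against normal food are close to 0 and not stable in sign: the median was -0.04 with the length correction and -0.01 without replicate 2, and summed CPM was 2237 and 2029 in the methionine-free tumours against 2247 in normal food, the same direction as with tryptophan and niacin left out. For the 4 regulators they were -0.85 in the combined omission against tryptophan/niacin-free and 0.64 and 0.66 in methionine-free against normal food, a difference of -1.51. Only the methionine-free diet had more than 1 library, so the spread of each such difference is unknown for the other diets.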

How the results depend on the processing

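No paired analysis was possible because the diets share fewer than 2 replicate numbers. edgeR called 0 of the 48 genes under each scaling, filter and length setting run, and so did DESeq2 and limma-voom; leaving out a methionine-free library ends the test in the model with a mean per diet, which then has no residual degree of freedom. The size rule gave 1 gene higher in tryptophan/niacin-free than in normal food without a filter on low counts, since RFC2 was then at 0.99. At 1.5-fold it gave 11 genes higher in that comparison (3.53% of all genes), 2 lower in the combined omission against normal food (2.59%) and 10 lower in the combined omission against tryptophan/niacin-free (3.44%).

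With total counts as the scaling, the replication median in tryptophan/niacin-free against methionine-free was 0.23. With the length correction the mitosis median was -0.039 in methionine-free against normal food and 0.26 in tryptophan/niacin-free against methionine-free. The replication median minus the mitosis median was then 0.24 in methionine-free against normal food, -0.14 in the combined omission against methionine-free, -0.065 in tryptophan/niacin-free against methionine-free and -0.47 in the interaction. The cause of these changes was not tested.

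With 1 methionine-free library left out at a time, the mitosis median ran from -0.012 to 0.22 in methionine-free against normal food, from -0.44 to -0.13 in the combined omission against methionine-free and from -0.074 to 0.23 in tryptophan/niacin-free against methionine-free. The replication median ran from -0.41 to -0.22 in the combined omission against methionine-free and from -0.80 to -0.68 in the interaction. The replication median minus the mitosis median ran from 0.043 to 0.26 in methionine-free against normal food, from -0.090 to 0.036 in the combined omission against methionine-free, from -0.11 to 0.16 in tryptophan/niacin-free against methionine-free, from -0.27 to -0.21 in the interaction and from 0.041 to 0.10 for methionine in the additive model. At these depths a change of 1 on the log2 scale was mostly not detectable.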
